A study of Mus musculus with 16 samples.

Results

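Mitochondrial ribosomal protein genes were taken as the protein-coding genes whose symbols begin with Mrpl or Mrps followed by a digit. The annotation of GRCm38 gave 78 such genes among the 33072 genes of the count table, with 49 named for the large subunit and 29 for the small subunit. They lie on 17 chromosomes, and 5 pseudogenes with similar symbols were not counted as members. RNA was sequenced from mouse mammary carcinoma cells of the metastatic line 4T1 and the non-metastatic line 67NR, which stem from the same spontaneous tumor of a BALB/c mouse. Subconfluent cultures in medium with serum had received vehicle (DMSO) or 15 µM of the cPLA2α inhibitor CIX for 24 h, which gives 4 groups of 4 biological replicates, 16 samples altogether. Each line is a single established culture, so that a difference between 4T1 and 67NR is a difference between these lines and not between metastatic and non-metastatic tumors in general.

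The mitochondrial ribosome translates the few mRNAs encoded by mitochondrial DNA, all of which specify hydrophobic subunits of the respiratory chain and the ATP synthase. Its RNAs come from the mitochondrial genome, whereas all of its proteins are encoded in the nucleus, made in the cytosol and imported. Part of the proteins have counterparts in bacterial ribosomes and the rest were acquired in mitochondria. By that division, 46 members are conserved and 31 are specific to mitochondria, and the remaining member, Mrps36, is now known to encode a subunit of the 2-oxoglutarate dehydrogenase complex. Mrps30 and Mrps18a carry small-subunit names although their proteins sit in the large subunit, so that the division by structure gives 51 large and 26 small members.

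Promoters are shown for the 2 members that rose and the 2 that fell furthest with CIX in 4T1 among those called, and for Mrpl45, since these genes have to be transcribed from many separate loci. RefSeq windows on GRCm38.p6, from 250 bases before to 50 bases after the transcription start, were matched for 69 of the 78 members by symbol, in 75 windows. They were searched on both strands for GCGC followed by any base and TGCGC, the motif of NRF1, for CCGGAAG, bound by ETS factors such as GABP, and for AAGATGGC, bound by YY1. None of these motifs contains another. At least 1 of the 3 stood in the windows of 62.3% of the matched members, against 16.4% of 27025 genes and 56.4% of 55 cytosolic ribosomal protein genes. The 27025 genes are all those with a window and were not limited to genes expressed in these cells, whereas all members were expressed. The ETS motif was found in 26 members (37.7%, against 9.93% of all genes), the NRF1 motif in 13 (18.8%, against 5.19%) and the YY1 motif in 12 (17.4%, against 3.19%). The 250 bases before the start are printed for Mrps31 (chr8:22411090-22411339, plus strand) and Mrpl24 (chr3:87919294-87919543, plus strand), which rose. They are followed by Mrpl49 (chr19:6057756-6058005, minus strand) and Mrps6 (chr16:92058086-92058335, plus strand), which fell, and by Mrpl45 (chr11:97315466-97315715, plus strand), which also fell and is shown because its window holds the most NRF1 matches of the matched members. Capitals mark the motif matches.
Mrps31: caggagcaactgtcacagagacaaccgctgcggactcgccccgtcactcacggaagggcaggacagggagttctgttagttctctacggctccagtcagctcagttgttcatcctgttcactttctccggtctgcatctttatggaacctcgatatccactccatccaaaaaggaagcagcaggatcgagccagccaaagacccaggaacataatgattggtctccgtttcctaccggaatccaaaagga
Mrpl24: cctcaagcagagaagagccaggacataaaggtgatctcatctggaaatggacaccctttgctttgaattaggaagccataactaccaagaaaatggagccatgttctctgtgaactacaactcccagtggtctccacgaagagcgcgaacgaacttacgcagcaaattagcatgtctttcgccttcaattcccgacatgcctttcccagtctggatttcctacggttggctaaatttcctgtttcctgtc
Mrpl49: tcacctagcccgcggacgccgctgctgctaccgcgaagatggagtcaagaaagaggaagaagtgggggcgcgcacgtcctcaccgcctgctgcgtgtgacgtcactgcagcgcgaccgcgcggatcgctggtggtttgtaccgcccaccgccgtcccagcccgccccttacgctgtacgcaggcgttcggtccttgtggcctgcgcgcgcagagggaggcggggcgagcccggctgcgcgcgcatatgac
Mrps6: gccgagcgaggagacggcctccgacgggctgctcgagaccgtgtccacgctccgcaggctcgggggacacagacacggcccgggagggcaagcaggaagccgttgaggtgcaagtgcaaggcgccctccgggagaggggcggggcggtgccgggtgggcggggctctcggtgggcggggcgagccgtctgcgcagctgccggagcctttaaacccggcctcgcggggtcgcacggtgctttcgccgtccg
Mrpl45: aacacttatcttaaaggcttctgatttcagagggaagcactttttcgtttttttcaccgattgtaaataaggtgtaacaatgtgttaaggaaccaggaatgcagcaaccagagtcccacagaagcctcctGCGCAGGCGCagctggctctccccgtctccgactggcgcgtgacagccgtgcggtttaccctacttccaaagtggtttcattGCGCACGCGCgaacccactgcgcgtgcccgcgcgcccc
The windows of Mrps31, Mrpl24 and Mrps6 held none of the 3 motifs. That of Mrpl49 held a YY1 match at position 17 after the start, which is not printed. Mrpl45 had 3 NRF1 matches in its window, of which 2 lie in the printed bases with the first at position -120. Mrpl46 and Mrps11 on chromosome 7 are divergent genes whose windows overlap. A match is a description of these letters only.

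Levels can be compared between genes only per transcript length, and were therefore expressed as approximate TPM (from estimated counts per base of mean transcript length). All 78 members were detected and passed the expression filter in every comparison. Their mean levels over the 16 samples ran from 3.92 to 226 TPM, with a median of 41.8, and 74 of them lay between 10 and 150 TPM. The highest means were those of Mrps21 (226 TPM, ranging from 103 to 714 between samples), Mrps6 (203 TPM, from 123 to 355) and Mrpl18 (143 TPM, from 96.3 to 286). The ranges of these neighbours in the order overlapped widely. Mrps18b and Mrpl12, the stalk protein that recruits translation factors, followed with 133 TPM each. The lowest means were those of Mrpl23 (3.92 TPM, from 0.479 to 9.16), Mrps25 (6.63 TPM, from 1.16 to 10.5) and Mrps31 (10.6 TPM, from 4.1 to 20.4), and each of these genes also differed between the groups, as described for the comparisons.

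**Figure D1:**
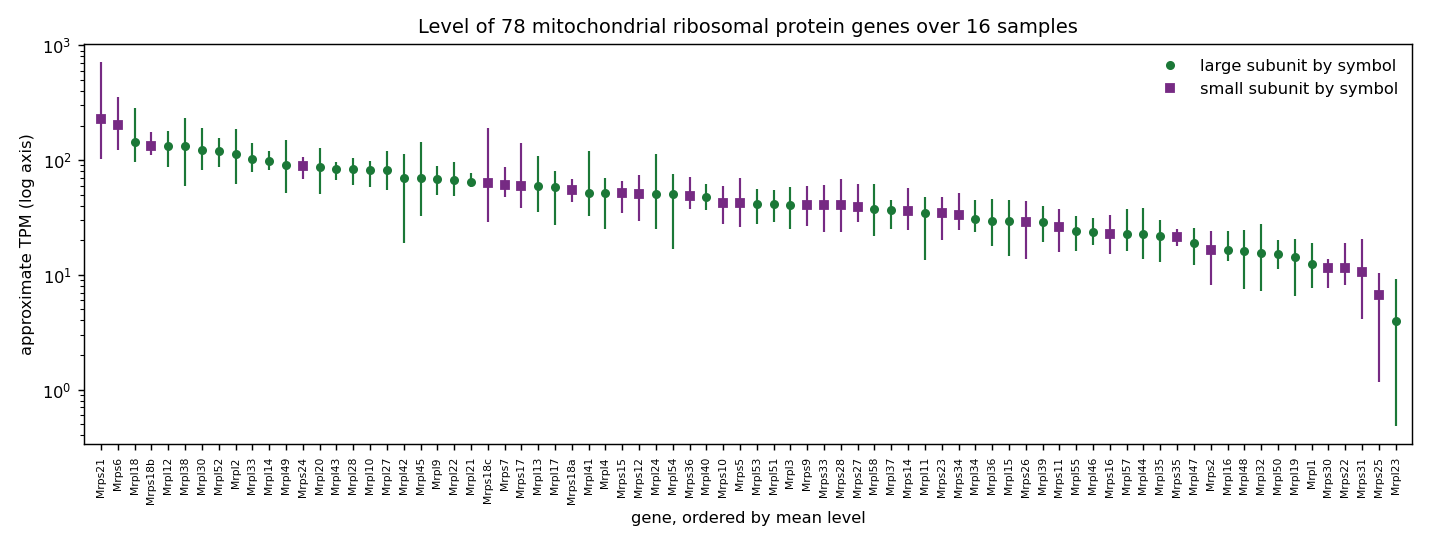
Approximate TPM (log axis) of the 78 genes, ordered by their mean over 16 samples. Points are means and vertical lines run from the lowest to the highest sample. Most genes lie between 10 and 150 TPM, Mrps21 is highest at 226 TPM and Mrpl23 lowest at 3.92 TPM.

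Some libraries stood apart before any comparison was made. The total estimated count ranged from 21715700 to 29450629 per sample, and replicates of a group differed by a chi-square of at least 18.8 per gene, so that no library was a repeat of another. In 4T1 with vehicle, 12 members of replicate 3 lay more than 0.5 (log2) from the median of their group, and in 4T1 with CIX 6 members of replicate 4 did so. In 67NR with vehicle the same held for 6 members of replicate 13, whose correlation with the rest of its group over the members was 0.888, where the other libraries reached between 0.943 and 0.99. The members that were high in replicate 13 included short and longer transcripts. Mrps21 (mean transcript length 398 bases) had 239 CPM there and 49.5 to 63.9 CPM in the other 3 replicates, and Mrps18c (482 bases) had 52.1 CPM there and 11.5 to 16.5 CPM in the others. Mrpl18 (521 bases) had 125 CPM there and 64.0 to 77.5 CPM in the others, against a median transcript length of 1074 bases over the members. Mrps17 (1354 bases), named after its values were seen, had 160 CPM there and 66.6 to 68.8 CPM in the others. In 4T1 with vehicle, replicate 11 was highest for the same genes, with 144 CPM for Mrps21, 71.5 CPM for Mrps18c, 75.2 CPM for Mrpl18 and 71.7 CPM for Mrps17. The part of transcript length in these values was not tested. No group difference of Mrps21 or Mrps18c passed an adjusted p of 0.05 except Mrps21 between the CIX-treated lines (log2 difference -0.87 ± 0.25 SE, limma-voom adjusted p = 0.0118), where the samples of the groups overlapped.

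Levels were also summed over the members of each subunit, by symbol. The large subunit summed to 2742 to 3118 TPM in 4T1 with vehicle, 2608 to 2846 with CIX, 2754 to 2847 in 67NR with vehicle and 2522 to 2681 with CIX. The small subunit summed to 1427 to 1943 TPM in 4T1 with vehicle, 1319 to 1468 with CIX, 1519 to 2125 in 67NR with vehicle and 1334 to 1514 with CIX. For both subunits, every CIX sample of 67NR was lower in these TPM sums than every vehicle sample, and in 4T1 the ranges overlapped. With the division by structure the large subunit of 67NR stayed separate, but the small subunit did not, with 1224 to 1408 TPM with CIX and 1406 to 2030 TPM with vehicle. On the CPM scale, the sums over all members overlapped in 67NR, with 3065.2 to 3358.4 CPM with CIX and 3350.5 to 3665.9 CPM with vehicle. The highest small-subunit sums, 2125 TPM in replicate 13 and 1943 TPM in replicate 11, contained the 714 and 458 TPM of Mrps21 noted for those libraries. The ratio of large to small was 1.95 ± 0.0245 (SD, n = 4) in 4T1 with CIX and 1.75 ± 0.194 with vehicle, and 1.84 ± 0.094 in 67NR with CIX and 1.7 ± 0.273 with vehicle. The mean of the log2 levels, in which the abundant genes weigh no more than the rest, ordered the groups differently. For the small subunit it was 5.08 ± 0.0879 in 4T1 with vehicle, 5.24 ± 0.064 with CIX, 5.29 ± 0.0142 in 67NR with vehicle and 5.18 ± 0.0176 with CIX. In that measure the small subunit of 4T1 ran from 5.00 to 5.19 with vehicle and from 5.19 to 5.33 with CIX. In 67NR the CIX and vehicle samples of the small subunit were separate. The large subunit overlapped in both lines in that measure. It ran from 5.33 to 5.48 with vehicle and 5.31 to 5.38 with CIX in 67NR, and from 5.30 to 5.55 and 5.38 to 5.50 in 4T1. Together the members took between 0.386% and 0.488% of the TPM of a sample.

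**Figure D2:**
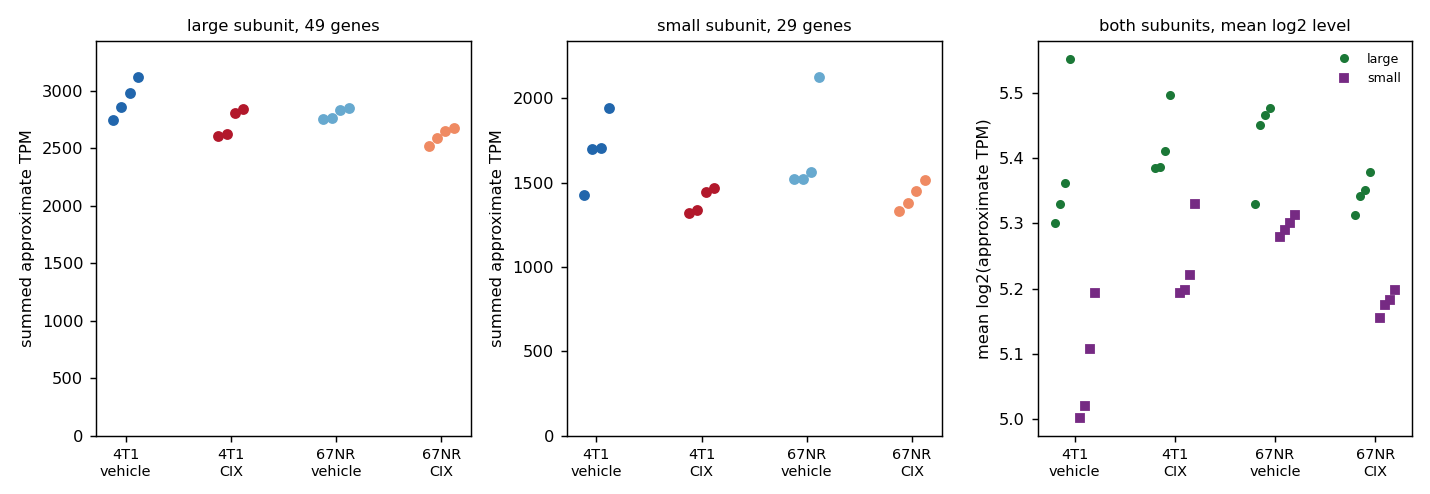
Summed approximate TPM of the large and small subunit genes and the mean of their log2 levels in each of the 16 samples, 4 per group. Points are samples, the sums start at 0, and the small-subunit sums of 2125 and 1943 TPM are the highest points of the vehicle groups.

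The first question was which members responded to CIX in the metastatic line. With CIX, 12 of the 78 members were called in 4T1 at an adjusted p below 0.001, 8 higher and 4 lower, which is 15.4% of the members where 9.34% of all 11659 genes tested were called (5.35% higher and 3.99% lower). Leaving out each sample in turn gave 4 to 9 called members, in fits for which the share of all genes is not given. At an adjusted p below 0.05, 23 members rose and 12 fell, or 44.9% where 42.7% of all genes were called (21.9% higher and 20.8% lower). The members thus moved in both directions, with a median log2 fold change of 0.04 beside -0.01 over all genes, and with an SD of the fold changes of 0.669 beside 0.746 over all genes. At the wider threshold 13 large-subunit members rose and 9 fell, and 10 small-subunit members rose and 3 fell. Among conserved members 14 rose and 8 fell, and among mitochondria-specific members 9 rose and 4 fell. Samples of the CIX and vehicle groups did not overlap for 22 members that were higher and 14 that were lower, beside 21.2% and 18.8% of all genes.

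Among the members that rose in 4T1, Mrps31, which encodes a protein of the small subunit found only in mitochondrial ribosomes, had 6.39, 7.93, 8.15 and 9.06 CPM with vehicle and 24.8, 31.4, 33.5 and 34.1 CPM with CIX (log2 fold change 1.95 ± 0.17 SE, adjusted p = 7e-05). In 67NR it ran from 14.8 to 15.9 CPM with vehicle and from 15.6 to 16.6 CPM with CIX. Mrpl24, a conserved protein of the large subunit, had 20.4, 22.3, 27.2 and 27.2 CPM with vehicle and 64.5, 82.2, 82.5 and 93.1 CPM with CIX (1.71 ± 0.15, adjusted p = 8.2e-05). The 67NR samples of this gene ran from 28.1 to 33.5 CPM, below every CIX sample of 4T1. Mrps5, a conserved small-subunit protein, had 29.4 to 37.2 CPM with vehicle and 76.0 to 87.0 CPM with CIX (1.27 ± 0.11, adjusted p = 6.7e-05). Mrpl19 of the large subunit had 10.1 to 15.0 CPM with vehicle and 29.5 to 33.1 CPM with CIX (1.31 ± 0.14, adjusted p = 0.000149). Mrps31, Mrpl24, Mrps5 and Mrpl19 stayed called whichever of the 8 samples of 4T1 was omitted.

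Mrpl42 had 17.1 to 30.8 CPM with vehicle and 45.8 to 60.9 CPM with CIX (log2 fold change 1.31 ± 0.19 SE, adjusted p = 0.000741), and was called in only 1 of the 8 fits without a sample. The other called risers were Mrpl15 (1.17 ± 0.14), Mrps22 (0.84 ± 0.13) and Mrps26 (0.81 ± 0.12), the last from 27.9 to 34.2 CPM with vehicle to 47.6 to 62.8 CPM with CIX. Without 1 sample, Mrpl15 was called in 3 of the 8 fits, and Mrps22 and Mrps26 in 0. The largest fold change of all members was that of Mrps25, with 2.10, 2.33, 2.64 and 6.52 CPM with vehicle and 7.74, 11.1, 14.9 and 19.7 CPM with CIX (2.02 ± 0.41, adjusted p = 0.00409). Its groups did not overlap but its samples were widely spread, and it passed only the threshold of 0.05. Mrpl54 (1.29 ± 0.29, adjusted p = 0.00601) likewise had 7.23 to 20.2 CPM with vehicle and 21.7 to 34.0 CPM with CIX. For both genes the highest sample of each group was replicate 3 with vehicle and replicate 4 with CIX. Mrpl23, the member with the lowest level, had 0.394 to 1.57 CPM with vehicle and 1.43 to 3.69 CPM with CIX (1.46 ± 0.45, adjusted p = 0.0269), with groups that overlapped, and it shares 14.0% of its 31-base words with transcripts of other genes.

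Among the members that fell in 4T1, Mrpl45 encodes the protein that holds the ribosome at the inner membrane next to the exit tunnel. It had 131, 134, 154 and 167 CPM with vehicle and 75.6, 77.5, 77.6 and 90.2 CPM with CIX (log2 fold change -0.88 ± 0.11 SE, adjusted p = 0.000353). Mrpl49 had 80.2 to 104 CPM with vehicle and 37.4 to 55.6 CPM with CIX (-1.05 ± 0.15, adjusted p = 0.000624). Mrps12, a conserved protein of the decoding centre, had 28.3 to 34.2 CPM with vehicle and 14.2 to 18.5 CPM with CIX (-0.97 ± 0.13, adjusted p = 0.000431). Mrps6, which was among the 3 most abundant members, had 175 to 239 CPM with vehicle and 87.5 to 132 CPM with CIX (-0.99 ± 0.14, adjusted p = 0.000699), and 18.4% of its words occur in another gene. The groups of all 4 genes were separate. Mrpl49, Mrps12 and Mrps6 were each called in 1 of the 8 fits without a sample and Mrpl45 in 4. Mrpl41 had the lowest fold change (-1.13 ± 0.20, adjusted p = 0.00194), from 32.7 to 53.0 CPM with vehicle to 15.6 to 24.5 CPM with CIX, with 21.1% of its words in a second gene. Across members, the fold change in 4T1 had a Spearman correlation of 0.3 with transcript length, -0.34 with the log2 TPM and 0.02 with GC content (78 genes of the same libraries, which are no independent replicates).

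**Figure D3:**
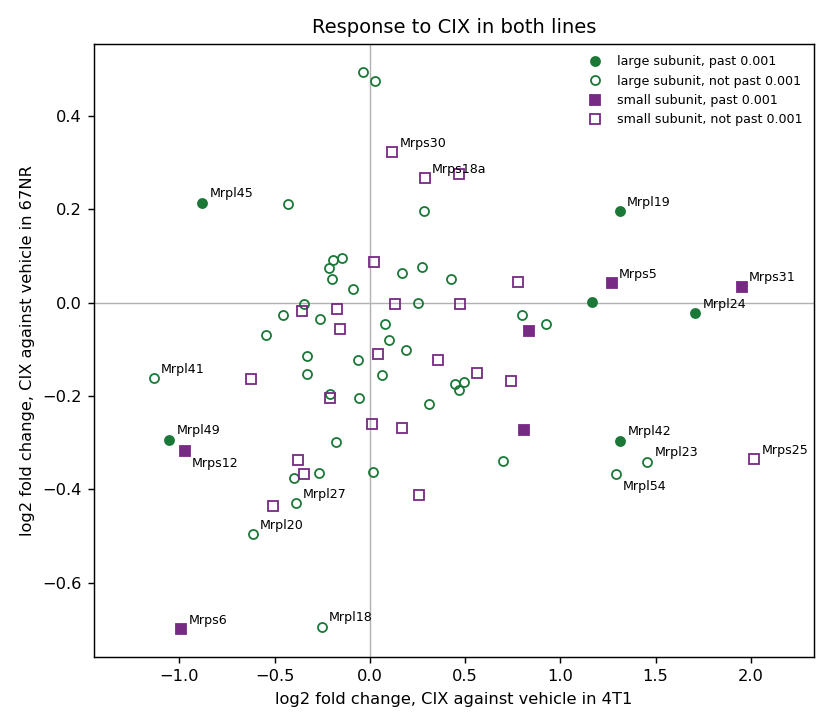
Log2 fold change with CIX in 4T1 (horizontal) and in 67NR (vertical) for the 78 genes, circles for the large and squares for the small subunit, filled where the adjusted p in either line was below 0.001. Values in 4T1 run from -1.13 to 2.02, those in 67NR from -0.70 to 0.49, and all filled points were called in 4T1.

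In 67NR, no member was called at an adjusted p below 0.001 by limma-voom or by edgeR's quasi-likelihood test, where limma-voom called 0.389% of all 11560 genes tested (0.182% higher and 0.208% lower). The Wald test of DESeq2 called 5 members, all lower (6.41%, beside 8.98% of all genes), and 27 members had an unadjusted p below 0.05 (34.6%, beside 32.8%). At an adjusted p below 0.05, 2 members rose and 16 fell, or 23.1% where 17.8% of all genes were called. By direction, 8.51% of all genes rose and 9.26% fell at that threshold. The median log2 fold change of the members was -0.11 beside -0.01 over all genes, and 56 of the 78 fold changes were below 0. Samples did not overlap for 4 members that were higher and 18 that were lower with CIX, beside 12.7% and 10.6% of all genes. No fold change in 67NR reached 1 on the log2 scale in either direction, against 11 in 4T1, where 2.55% and 13.8% of all genes did so.

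Mrps6 led the members that fell in 67NR, with 143, 157, 159 and 169 CPM with vehicle and 88.3, 91.0, 93.4 and 122 CPM with CIX (log2 fold change -0.70 ± 0.10 SE, adjusted p = 0.00348). It fell in both lines. Mrpl20 followed with 51.3 to 58.0 CPM with vehicle and 33.4 to 44.1 CPM with CIX (-0.50 ± 0.11, adjusted p = 0.0146). Mrpl27 (-0.43 ± 0.10), Mrpl36 (-0.38 ± 0.09) and Mrpl54 (-0.37 ± 0.08) had separate groups as well, and 35.5% of the words of Mrpl27 occur in other genes. Mrps36, the member that belongs to the 2-oxoglutarate dehydrogenase complex, had 21.5 to 24.2 CPM with vehicle and 16.8 to 20.4 CPM with CIX (-0.37 ± 0.09, adjusted p = 0.0203). The 2 members that rose were Mrps30 (0.32 ± 0.08, adjusted p = 0.0237), from 22.9 to 29.4 CPM with vehicle to 33.0 to 34.1 CPM with CIX, and Mrps18a (0.27 ± 0.07, adjusted p = 0.0245), from 35.0 to 38.5 CPM to 42.3 to 46.1 CPM. These are the members with small-subunit names whose proteins sit in the large subunit. Of the 49 members with large-subunit names, 0 rose and 10 fell at 0.05 in 67NR. In 4T1 Mrps30 had a log2 fold change of 0.12 ± 0.10 and Mrps18a 0.29 ± 0.12, and neither passed 0.05. The paralog Mrps18b, which does belong to the small subunit, had -0.06 ± 0.07 in 67NR and -0.16 ± 0.16 in 4T1.

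The responses of the lines share no samples and could be set against each other. The sign of the fold change was the same for 41 of the 78 members (52.6%, beside 59.1% of the 10614 genes tested in both lines), and the Spearman correlation was 0.18 over the members and 0.21 over those genes. At an adjusted p below 0.05 in both lines, 6 members moved the same way (7.69%, beside 5.84% of all genes) and 4 rose in 4T1 and fell in 67NR (5.13%, beside 1.71%), namely Mrpl42, Mrpl54, Mrps25 and Mrps26. No test was made of these shares. The difference of the responses itself was tested as the interaction of line and treatment. It was called at an adjusted p below 0.001 for 11 members, or 14.1% where 7.86% of all 12605 genes tested were called (4.81% higher and 3.05% lower). The response in 4T1 lay above that in 67NR for 10 of them and below it for Mrpl45 alone. At 0.05 the response was higher in 4T1 for 24 members and lower for 5, or 37.2% where 29.4% of all genes were called (15.1% higher and 14.2% lower), and the median difference was 0.12 beside -0.02 over all genes. The differences of Mrps31 (1.92 ± 0.18, adjusted p = 4.85e-06), Mrpl24 (1.73 ± 0.18, adjusted p = 8.28e-06), Mrpl42 (1.61 ± 0.20, adjusted p = 4.54e-05) and Mrpl45 (-1.10 ± 0.14, adjusted p = 4.04e-05) stayed called whichever of the 16 samples was omitted. That of Mrps25 was larger (2.35 ± 0.41, adjusted p = 0.000575) but was called in 3 of those fits, and that of Mrpl54 (1.65 ± 0.30, adjusted p = 0.000724) in 2. For Mrps6 the difference was -0.29 ± 0.19 (adjusted p = 0.264, limma-voom), so that a difference between the lines was not shown.

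**Figure D4:**
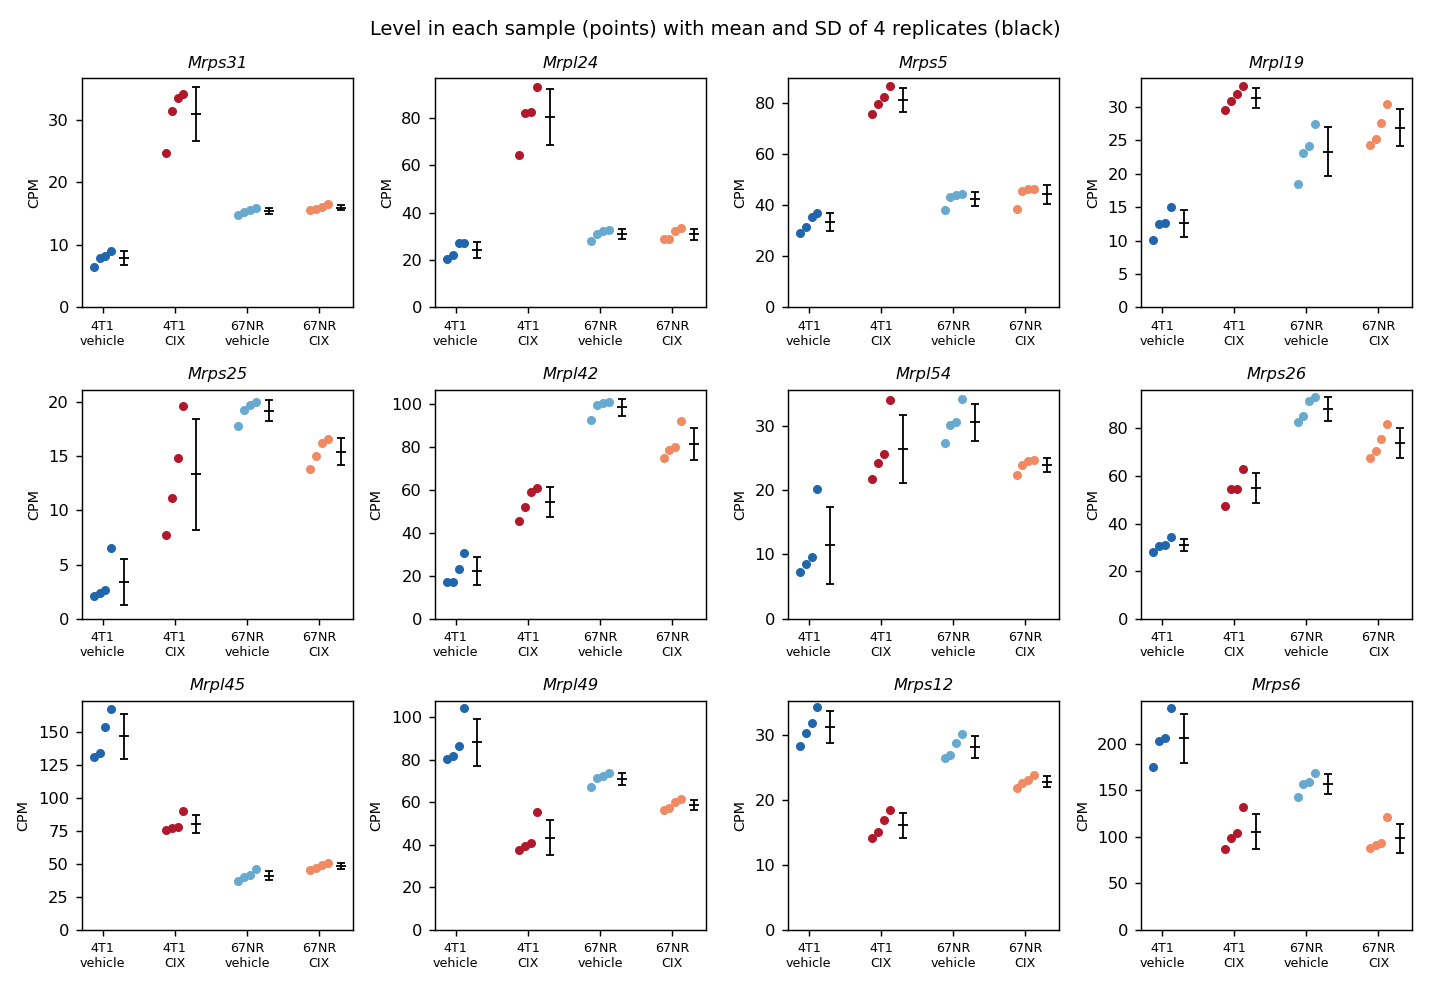
CPM of 12 genes in each sample (points, sorted within the group) with the mean and SD of 4 replicates (black), all axes starting at 0. Mrps31, Mrpl24 and Mrps5 are highest in 4T1 with CIX. Mrps25, Mrpl42, Mrpl54 and Mrps26 are lowest in 4T1 with vehicle, and Mrpl45 is highest there.

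With vehicle, the lines differed at many members. At an adjusted p below 0.001, 10 members were higher and 19 lower in 4T1 than in 67NR, or 37.2% where 40.0% of all 11040 genes tested were called (20.4% higher and 19.6% lower). At 0.05, 21 were higher and 31 lower, or 66.7% where 67.4% of all genes were called (33.3% higher and 34.1% lower). Samples of the lines did not overlap for 23 members that were higher and 27 that were lower in 4T1, beside 31.3% and 30.3% of all genes. Mrpl45 was higher in 4T1 by 1.83 ± 0.11 (log2, adjusted p = 8.47e-07), with 131 to 167 CPM in 4T1 and 37.1 to 45.8 CPM in 67NR. Mrpl32 was higher by 1.60 ± 0.12 (adjusted p = 2.91e-06), with 33.5 to 42.3 CPM in 4T1 and 10.9 to 13.4 CPM in 67NR. Mrpl41 (0.98 ± 0.17), Mrpl1 (0.83 ± 0.09) and Mrps28 (0.81 ± 0.13) followed.

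The members lower in 4T1 with vehicle were led by Mrpl23 (-2.88 ± 0.38, adjusted p = 0.000122), with 0.394 to 1.57 CPM in 4T1 and 5.13 to 7.95 CPM in 67NR. Mrps25 had 2.10 to 6.52 CPM in 4T1 and 17.8 to 20.0 CPM in 67NR (-2.66 ± 0.28, adjusted p = 3.05e-05). Mrpl42 had 17.1 to 30.8 CPM in 4T1 and 92.6 to 101 CPM in 67NR (-2.21 ± 0.17, adjusted p = 3.92e-06). Mrpl54 (-1.54 ± 0.26, adjusted p = 0.000616) and Mrps26 (-1.52 ± 0.09, adjusted p = 1.02e-06) were also lower, Mrps26 with 27.9 to 34.2 CPM in 4T1 and 82.5 to 93.1 CPM in 67NR. The groups of these 5 genes were separate by a wide margin except for Mrpl54, where replicate 3 of 4T1 had 20.2 CPM and the lowest 67NR sample 27.3 CPM. On omitting each of the 8 samples in turn, the call was kept in 1 fit for Mrpl54, 3 for Mrpl41 and 5 for Mrps28, and in all 8 for Mrpl45, Mrpl32, Mrpl1, Mrpl23, Mrps25, Mrpl42 and Mrps26. The neighbours Mrpl46 and Mrps11, whose promoter windows overlap, differed in this comparison. Mrps11 was lower in 4T1 by -0.93 ± 0.13 (adjusted p = 0.000196) and Mrpl46 had a log2 difference of 0.10 ± 0.13 (adjusted p = 0.536). This pair was chosen after its values were seen.

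The lines were then compared after CIX. At an adjusted p below 0.001, 10 members were higher and 3 lower in 4T1, or 16.7% where 34.4% of all 10931 genes tested were called (18% higher and 16.3% lower). At 0.05, 22 were higher and 19 lower, or 52.6% where 63.9% of all genes were called (31.8% higher and 32.1% lower). Samples did not overlap for 20 members that were higher and 18 that were lower in 4T1, beside 29.4% and 28.2% of all genes. The median absolute log2 difference of the members was 0.335 with CIX and 0.56 with vehicle, beside 0.547 and 0.638 over all genes. Called differences of at least 1 (log2) in the lower direction were found for 10 members with vehicle (12.8%, beside 13.3% of all genes) and for 1 with CIX (1.28%, beside 10.2%), Mrpl17 (-1.24 ± 0.11, adjusted p = 6.87e-06), which had 44.0 to 60.2 CPM in 4T1 and 112 to 125 CPM in 67NR. In the higher direction there were 2 with vehicle (2.56%, beside 13.0% of all genes) and 3 with CIX (3.85%, beside 11.0%). The latter were Mrpl24 (1.36 ± 0.13), Mrpl32 (1.25 ± 0.14) and Mrpl13 (1.13 ± 0.10, with 110 to 143 CPM in 4T1 and 53.7 to 60.0 CPM in 67NR). Over the members, the differences with vehicle and with CIX, which share no samples, had a Spearman correlation of 0.62, beside 0.77 over the 10727 genes tested in both. Members called in both in the same direction numbered 6 (7.69%, beside 23.8% of those genes), and Mrps31 was called lower in 4T1 with vehicle (-0.98 ± 0.12) and higher with CIX (0.93 ± 0.12). Mrpl58, the peptidyl-tRNA hydrolase built into the large subunit, was lower in 4T1 with CIX (-0.92 ± 0.14, adjusted p = 0.000237) and had no response to CIX past the threshold in either line. That call was kept in 3 of the 8 fits without a sample, and replicate 4 of 4T1 had 25.0 CPM where the next CIX sample had 17.9 CPM. Without replicate 4 of 4T1, the library that stood apart, 22 members in place of 13 were called between the CIX-treated lines. The share of all genes called in that fit is not given, so that the contrast of 16.7% with 34.4% was not checked there.

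Because the comparisons within 4T1 and between the lines use the same vehicle samples of 4T1, the levels of the groups are given side by side only. Mrps25 had means of 3.40 CPM in 4T1 with vehicle, 13.4 with CIX, 19.2 in 67NR with vehicle and 15.4 with CIX. For Mrpl54 the means were 11.4, 26.4, 30.5 and 23.9 CPM in that order, for Mrpl42 22.1, 54.5, 98.5 and 81.5 CPM, and for Mrps26 30.9, 54.8, 88.1 and 73.9 CPM. In these genes the CIX samples of 4T1 lay between the vehicle samples of 4T1 and those of 67NR or overlapped the latter. Mrps31 had 7.88, 30.9, 15.4 and 16.0 CPM and Mrpl24 24.3 CPM in 4T1 with vehicle and 80.6 CPM with CIX, and for both genes the CIX samples of 4T1 were the highest of all groups. For Mrpl45 the means were 146, 80.2, 41.0 and 48.0 CPM, with 11.6% of its words in other genes.

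**Figure D5:**
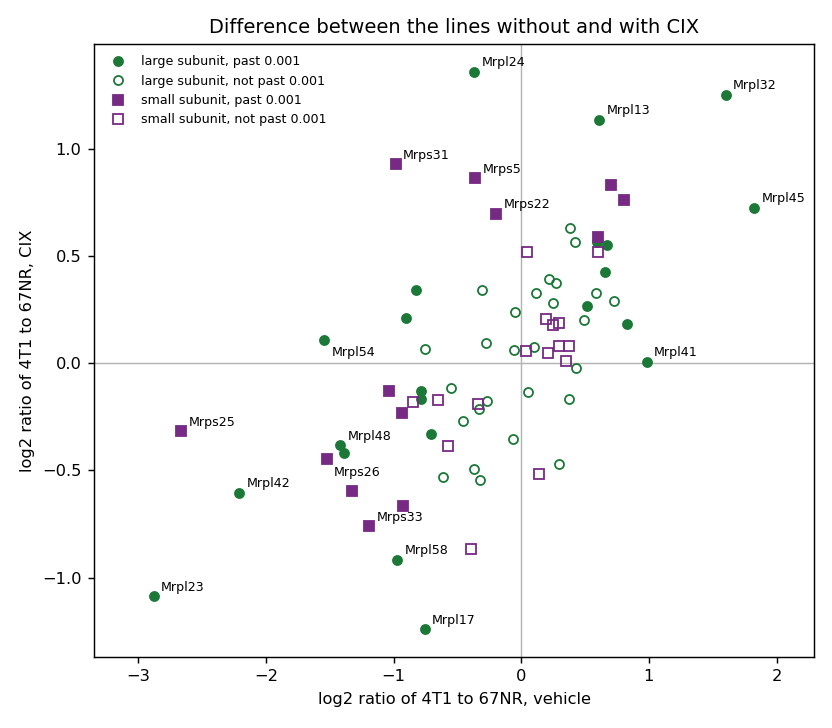
Log2 difference of 4T1 from 67NR with vehicle (horizontal) and with CIX (vertical) for the 78 genes, circles for the large and squares for the small subunit, filled where either adjusted p was below 0.001. The horizontal values run from -2.88 to 1.83 and the vertical ones from -1.24 to 1.36, and Mrps31 changes side.

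Marker genes of cell types also differed between the lines. The 8 epithelial markers summed to 2523 to 2922 CPM in 4T1, with overlapping vehicle and CIX groups although Krt19 rose and Epcam and Cldn7 fell there among the 6 tested, and to 1.08 to 5.53 CPM in 67NR. The 8 mesenchymal markers summed to 2644 to 3453 CPM in 4T1 with vehicle, 4586 to 5475 with CIX, 7388 to 8532 in 67NR with vehicle and 10396 to 11268 with CIX. The largest part of this sum in 67NR was Vim, with 4525 to 5450 CPM with vehicle and 7308 to 8378 CPM with CIX, while of the 7 markers tested there 2 rose and 2 fell at 0.05 and the median log2 fold change was -0.33. The 7 immune and endothelial markers summed to at most 4.12 CPM. The part of this difference in the levels of the mitochondrial ribosomal protein genes was not tested. In bulk samples, fewer cells with a transcript and less of it per cell cannot be told apart.

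Promoter motifs were then set beside the response in 4T1. A match to any of the 3 motifs was found for 8 of 18 matched members that rose at 0.05 (44.4%), 8 of 11 that fell (72.7%) and 27 of 40 that were not called (67.5%). The NRF1 motif was found in 1 of the 18 that rose and 3 of the 11 that fell, and the YY1 motif likewise in 1 and 3. The ETS motif was found in 38.9% of those that rose and 36.4% of those that fell. These counts are small and describe the windows only.

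The genes around the ribosome were taken from lists of related functions, whose counts at 0.05 stand beside 42.7% of all genes in 4T1 (21.9% higher and 20.8% lower) and 17.8% in 67NR. Of the 5 further ribosomal proteins that lack an Mrp symbol, Dap3 (log2 fold change 0.86 ± 0.14 SE), Gadd45gip1 (0.95 ± 0.19) and Chchd1 (0.34 ± 0.12) rose in 4T1 at 0.05 and Ptcd3 (-0.58 ± 0.12) fell, and none passed 0.05 in 67NR. Of 27 assembly factors, 5 rose and 6 fell in 4T1 at 0.05 (40.7%). Eral1, the GTPase that chaperones the RNA of the small subunit, rose from 2.50 to 5.99 CPM with vehicle to 23.9 to 29.5 CPM with CIX (2.67 ± 0.24, adjusted p = 8.62e-05), while its 67NR samples ran from 21.5 to 28.6 CPM. Trub2, a pseudouridine synthase, rose by 1.62 ± 0.30, and Mettl17 (-0.71 ± 0.14) and Mrm2 (-0.70 ± 0.16) fell. In 67NR, 1 of 26 factors tested fell, Tfb1m (-0.70 ± 0.14, adjusted p = 0.0115), a methyltransferase of the small-subunit RNA. Of 15 translation factors tested, 4 rose and 2 fell in 4T1 (40.0%), led by the elongation factor Tsfm (0.91 ± 0.15), and none passed 0.05 in 67NR. Of 11 genes of mitochondrial transcription and DNA replication, 1 rose and 3 fell in 4T1 (36.4%), with the elongation factor Tefm at 0.85 ± 0.17 and the helicase Twnk at -1.08 ± 0.10. Polrmt (-0.04 ± 0.12) and Tfam (0.07 ± 0.12) did not pass the threshold in 4T1.

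Of 9 nuclear regulators tested, 3 rose and 1 fell in 4T1 at 0.05 (44.4%). Gabpb1, a partner subunit of the ETS factor Gabpa, had 10.2 to 12.0 CPM with vehicle and 24.3 to 40.3 CPM with CIX (1.42 ± 0.18, adjusted p = 0.000331), and the paralog Gabpb2 fell from 121 to 161 CPM to 76.3 to 91.4 CPM (-0.83 ± 0.12, adjusted p = 0.000669). Gabpa (0.13 ± 0.09), Nrf1 (0.57 ± 0.22) and Yy1 (-0.15 ± 0.09) did not pass 0.05 in 4T1, and Myc rose in both lines (0.62 ± 0.15 in 4T1 and 0.48 ± 0.09 in 67NR). In 67NR 2 of the 9 rose and 1 fell at 0.05 (33.3%), with Esrra at 0.61 ± 0.11 beside Myc and with Gabpb2 at -0.35 ± 0.05, so that Gabpb2 fell in both lines. The 13 mRNAs of mitochondrial DNA, the templates of this ribosome, included 4 that fell at 0.05 in 4T1 (30.8%) and none that passed in 67NR. Their median log2 fold change was -0.31 in 4T1 and -0.86 in 67NR. Summed in 4T1, they had a median of 6687 CPM with vehicle and 7068 CPM with CIX, and the groups overlapped. Their sum in 67NR with CIX ran from 3740 CPM in replicate 10 to 14391 CPM. Of 74 cytosolic ribosomal protein genes tested, 45 rose and 1 fell in 4T1 at 0.05 with a median of 0.26, and 15 rose and none fell in 67NR with a median of 0.17. The difference between the families was not tested.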

How the data were processed

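RNA of 16 cultures was sequenced on a stranded mRNA kit. The authors quantified transcripts with salmon (0.12 in the submitters' processing notes) on Ensembl GRCm38, used tximport to aggregate them per gene, and the table they deposited holds estimated counts without normalization (0.121% of values above 0 were whole within 0.0001). Depth is given in the report. At these depths 3 counts correspond to 0.102 to 0.138 CPM, which covers counting error only.

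All 16 columns were mapped to samples by their labels. Estimated counts were rounded. TPM was approximated from mean transcript lengths of GENCODE M21, and genes below 1 TPM in more than 3 samples of a comparison were left out (for the interaction, in both lines). Tests were limma-voom with TMM (limma 3.58.1, edgeR 4.0.16, R 4.3.3), fitted on all genes with Benjamini-Hochberg adjustment, with calls at 0.001, the threshold of the study, and at 0.05. At 0.001 the fit called 1089 genes for CIX in 4T1, fewer than the paper reported for that comparison. The source of that gap was not tested. Each treatment or line comparison used its 8 samples and the interaction all 16. The method was tested on simulated data. CPM values are on the TMM scale over 16 samples. Alternatives were edgeR's quasi-likelihood test, DESeq2 1.42.0, other scalings, no filter, a common fit, sample weights, the subunits by structure and leaving out each sample. Words of 31 bases shared with transcripts of other genes were counted.

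Members and lists were chosen with earlier results of these data known. Named are the 5 members that moved furthest each way among those called with separate groups in each comparison (at 0.05 where fewer than 3 were called), the 3 highest and 3 lowest members, fixed members of known role, members called in the interaction, and the leading genes of each related list. The other members called with CIX in 4T1 and the pair Mrps11 and Mrpl46 were named after their values were seen.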

Additional observations from a re-analysis of the deposited data

Results flagged for a closer look

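In 128 groups of 4 samples examined for 32 named members, 10 held a sample beyond Dixon's 95% critical value, where chance marks about 1 in 20 groups, or 6.4. Replicate 13 of 67NR with vehicle was high for Mrps21 (239 CPM, next 63.9) and Mrps18c (52.1 CPM, next 16.5) and low for Mrpl42 (92.6 CPM, others 99.8 to 101). Replicate 3 of 4T1 with vehicle was high for Mrps25 (6.52 CPM, next 2.64) and low for Mrpl1 (33.5 CPM, others 37.9 to 38.2). Single samples stood out for Mrps5 in 67NR with CIX (38.8 CPM in replicate 10, others 45.6 to 46.6), Mrps6 in 67NR with CIX (122 CPM in replicate 2, next 93.4), Mrpl45 in 4T1 with CIX (90.2 CPM in replicate 12, next 77.6), Mrpl23 in 67NR with vehicle (7.95 CPM in replicate 9, next 5.44) and Mrpl58 in 4T1 with CIX (25.0 CPM in replicate 4, next 17.9).

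The response to CIX differed between the lines, as tested by the interaction term in limma-voom, for 11 members. The difference (4T1 minus 67NR, log2) was 2.35 for Mrps25, 1.92 for Mrps31, 1.73 for Mrpl24, 1.65 for Mrpl54, 1.61 for Mrpl42, 1.23 for Mrps5, 1.17 for Mrpl15, 1.11 for Mrpl19, 1.08 for Mrps26, 0.89 for Mrps22 and -1.10 for Mrpl45. On omitting each of the 16 samples in turn, the call was kept in 2 fits for Mrpl54, 3 for Mrps25, 7 for Mrpl19 and 9 for Mrps22, and in all 16 for the other 7 members.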

How the results depend on the processing

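No paired fit was run, because the groups share no replicate numbers and the labels name no set or batch. The libraries are numbered from 1 to 16 in a repeating order of 67NR vehicle, 67NR CIX, 4T1 vehicle and 4T1 CIX. Whether that order pairs samples is not stated, and a fit by it was not made. The number of called members depended on the test. In 4T1 it was 12 and became 23 with DESeq2's Wald test, 20 with all 16 samples in 1 fit, 20 with sample quality weights and 35 at an adjusted p below 0.05. In 67NR it was 0 and became 5 with the Wald test, 1 with sample quality weights and 18 at 0.05. Between the lines with CIX it was 13 and became 30, 23, 26 and 41 under the same 4 settings, and with vehicle it was 29 and became 52 at 0.05. For the interaction it was 11 and became 19 with the Wald test, 20 with sample quality weights and 29 at 0.05. In 67NR the Wald test also called more of all genes, 8.98% in place of 0.389%. For the other comparisons and settings at 0.001 that share is not given. A rise among the members can therefore not be told from a rise over all genes. Leaving out each sample in turn gave 4 to 9 members in 4T1, 0 to 1 in 67NR, 21 to 32 between the lines with vehicle, 10 to 22 with CIX and 7 to 12 for the interaction. In 4T1 the count was 4 without vehicle replicate 7 or 15 or CIX replicate 8 or 16, 6 without vehicle replicate 11 or CIX replicate 12; between the lines with CIX it was 22 without 4T1 CIX replicate 4. In 67NR it was 1 without CIX replicate 2. In the interaction it was 7 without 67NR vehicle replicate 1, 5 or 9, 67NR CIX replicate 10 or 14 or 4T1 vehicle replicate 7. These fits have fewer samples.

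The median log2 fold change of the members in 4T1 (0.04) was -0.024 with scaling by library size only, which moved the median of all genes to -0.07, and 0.10 without the filter. Relative to all genes (-0.01 in the fit reported) the members stayed above the median under both. Leaving out each sample gave 0.011 to 0.10 in 4T1, -0.13 to -0.08 in 67NR, -0.12 to 0.00 between the lines with vehicle and 0.03 to 0.10 with CIX. Mrpl58 in 4T1 had -0.06, and -0.21 to 0.10 on leaving out each sample, with 0.10 without vehicle replicate 3. Over the named members, 703 of the remaining refits kept direction and side of the threshold, 96 lost the call and 7 gained it. In an alternative added after seeing the data, leaving out members that share 10% or more of their words left 9 of 60 called in 4T1 (15.0%, beside 15.4% of all 78). With edgeR's test the counts stayed within 1.5 times those reported.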
